A study of Mus musculus with 32 samples.

Results

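Xrcc4, Mettl15, Vpreb1, Krt10, Prss36, BC025920, Chmp2a, Dnajc4, Tmem209 and Spa17 are 10 mouse genes that were selected on 1 measured value, the difference in RNA level between Chd8+/- and wild-type littermate embryos averaged over 4 stages of cortical development, which was positive in each. They are 10 of the 32285 genes counted. The difference between the genotypes chose them, so it is given below as values with standard errors, and any count of these genes among those called in that contrast restates the choice and is no test of them. Not used in the choice were their change over development, their level in progenitors and neurons, and the genes around them. The differences between stages, sexes and cell classes were not used either, but those between classes are not independent of the choice.

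The cells came from the dorsal telencephalon, the part of the embryonic forebrain that becomes the cerebral cortex, of C57BL/6J mouse embryos. Embryos with both copies of Chd8 intact (WT) and embryos heterozygous for its loss (Chd8+/-, written het below) were taken at 4 embryonic ages in days, E12.5 and E14.5, then E16.0, and last E17.5. Each of the 8 groups of stage and genotype had 4 libraries from single embryos, of which 2 were male (M1, M2) and 2 female (F1, F2). The labels describe pairs of a het and a WT embryo of the same litter and sex, 4 at each stage, without naming the partners. Libraries of the same stage, sex and replicate number were taken here as the 16 pairs, and every count of pairs below rests on that. The medial wall, from which the hippocampus forms, had been cut away, and the labels do not describe the Chd8 allele further.

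Chd8 encodes a chromatin remodelling enzyme that uses ATP to move nucleosomes, and loss of a single copy in people is among the best established genetic causes of autism. In the developing cortex, radial glia that carry the transcription factor Sox2 divide along the ventricle and give rise to intermediate progenitors marked by Eomes, and both produce the excitatory neurons that switch on Neurod6. The 10 genes were not drawn from a common pathway. Xrcc4 and Tmem209 encode proteins of DNA repair and of the nuclear envelope, and Mettl15 encodes a mitochondrial RNA methyltransferase. Chmp2a, Dnajc4 and Prss36 encode proteins that remodel membranes, assist protein folding and cut other proteins, whereas Vpreb1, Krt10 and Spa17 are best known from B cells, skin and sperm. BC025920 carries only the name of a cDNA clone, and no role is given for it here.

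The genes lie on 9 chromosomes (build GRCm38, GENCODE M21 annotation), and all are annotated as protein-coding. Of the 10, 9 are on the minus strand, against 49.7% of the 15884 tested genes that the annotation places, and BC025920 is on the plus strand. The promoters of 8 of them, each from 250 bases before to 50 bases after the start in RefSeq's GRCm38.p6 annotation, were searched on both strands for 8 short motifs. The 4 that follow are all that hold a match to a motif other than the GC box GGGCGG and CCAAT, and such matches are printed in capitals. Xrcc4 and Tmem209 hold CCGGAAG, the core bound by ETS factors (first bases 111 and 239 in Xrcc4 and 232 in Tmem209, counted from 1 at the 5′ end, some on the other strand as CTTCCGG). Chmp2a holds the palindromic NRF1 motif at base 179 and TGACGTCA, the cyclic-AMP response element, at base 254. Krt10 holds TATAAA at base 225. All 4 are on the minus strand and are written 5′ to 3′ along the gene, at chr13:90089559-90089858 (Xrcc4), chr6:30509724-30510023 (Tmem209), chr7:13034728-13035027 (Chmp2a) and chr11:99389315-99389614 (Krt10).
Xrcc4: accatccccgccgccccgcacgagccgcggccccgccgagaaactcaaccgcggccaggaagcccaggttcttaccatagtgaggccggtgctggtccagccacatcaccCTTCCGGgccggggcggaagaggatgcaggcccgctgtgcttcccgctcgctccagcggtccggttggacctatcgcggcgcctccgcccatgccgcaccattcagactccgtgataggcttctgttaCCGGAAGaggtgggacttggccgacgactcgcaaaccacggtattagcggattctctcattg
Tmem209: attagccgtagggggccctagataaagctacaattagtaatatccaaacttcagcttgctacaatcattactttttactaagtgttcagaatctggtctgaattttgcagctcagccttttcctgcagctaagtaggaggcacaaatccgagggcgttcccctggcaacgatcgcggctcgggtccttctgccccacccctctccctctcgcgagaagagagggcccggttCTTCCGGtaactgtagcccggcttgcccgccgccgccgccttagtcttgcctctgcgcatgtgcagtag
Chmp2a: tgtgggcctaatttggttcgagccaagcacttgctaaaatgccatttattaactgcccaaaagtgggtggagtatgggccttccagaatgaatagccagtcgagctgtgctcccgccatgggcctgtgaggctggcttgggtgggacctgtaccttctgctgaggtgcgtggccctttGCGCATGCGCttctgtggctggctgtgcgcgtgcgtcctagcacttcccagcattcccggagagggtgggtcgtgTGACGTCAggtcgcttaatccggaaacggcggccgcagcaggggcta
Krt10: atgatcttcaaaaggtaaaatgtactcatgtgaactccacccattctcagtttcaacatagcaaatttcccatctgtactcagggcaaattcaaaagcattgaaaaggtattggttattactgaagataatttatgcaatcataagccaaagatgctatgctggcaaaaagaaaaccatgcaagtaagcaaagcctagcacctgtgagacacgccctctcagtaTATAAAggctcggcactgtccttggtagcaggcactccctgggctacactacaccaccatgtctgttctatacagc

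The ETS core stood in 2 of the 8 promoters, against 9.12% of 27025 promoters of the same length. The NRF1 motif and the cyclic-AMP response element each stood in 1 of 8 (4.78% and 1.88% of all promoters) and TATAAA in 1 of 8 (14.2%). The GC box GGGCGG stood in 4 of 8 (35.9%) and CCAAT in 3 of 8 (37.9%), and none of the 8 motifs contains another. The YY1 motif AAGATGGCG (1.49%) and the E-box CACGTG (7.24%) were not in these windows. The 8 windows differed widely in base composition, from 42.0% G and C in Krt10 to 65.7% in Xrcc4, and their ratio of observed to expected CpG ran from 0.0917 in Vpreb1 to 0.970 in Xrcc4. A match is a description of letters and not a bound site.

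After filtering, 138226 cells remained, between 2399 and 6951 per library. The number of UMIs (captured RNA molecules, each counted once) before filtering lay between 14710694 and 66499864 per library. Levels are given as CPM, the UMIs of a gene per 1000000 UMIs, adjusted between libraries by the TMM method unless said otherwise. A UMI marks the 3′ end of a captured RNA, so these levels are not scaled by gene length. In a sum over all cells of a library, fewer cells of a type and less RNA per cell cannot be told apart. In 3 of the 4 pairs of E12.5 the het library was shallower, with a median depth per barcode of 0.703 (M1), 0.390 (F1) and 0.603 (F2) of its WT partner, against 1.06 in M2. These 3 het libraries also stood apart from the other 5 of their stage on the first principal component of expression, as did WT M1, het M1 and het F1 at E17.5. Any pair of libraries shared at most 66 cell barcodes, up to 1.301% of the smaller one. The markers of radial glia, intermediate progenitors and excitatory neurons were detected in every library. Chd8 had between 40.3 and 76.0 CPM in WT libraries and between 23.9 and 64.1 in het libraries. It was lower in het in 15 of 16 pairs, with a ratio between 0.556 and 1.08 (only F1 at E17.5 was above 1). The averaged log2 difference of Chd8 was -0.27 (SE 0.07). Its adjusted p was 0.117 by edgeR's quasi-likelihood test, above the threshold of 0.05 used below. The reads sit at the 3′ end and the deleted part of the gene is not described, so this is only a partial check of the labels.

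All 10 genes had a higher averaged level in het, and the size of the difference ran from a log2 value of 0.24 (SE 0.06) for Tmem209 to 0.81 (SE 0.09) for Vpreb1, which are folds of 1.18 and 1.76. Het was the higher library in 16 of 16 pairs for Xrcc4, Mettl15, Vpreb1, Prss36 and Chmp2a, in 15 for Krt10, Dnajc4 and Spa17, and in 14 for BC025920 and Tmem209. Over all 15895 tested genes, 0.132% were higher in het in all 16 pairs and 0.554% in at least 15. With edgeR's quasi-likelihood test and an adjusted p under 0.05, 37 of the 15895 genes were called higher in het (0.233%) and 11 lower (0.0692%), 48 in all (0.302%), and 9 of the 10 genes stood among the 37. These counts restate how the genes were chosen, and nothing is read from them. Just inside the threshold was 2900009J06Rik (log2 difference 0.53, rank 48), and just outside were Dalrd3 (0.19, rank 49) and Tmem209 (0.24, rank 50). When the litter- and sex-matched pair entered the fit as a block, the count was 235 (124 up and 111 down in het), with all 10 genes included. Without the 3 pairs of unequal depth, E12.5 kept only the M2 library of each genotype, and all 10 differences stayed positive.

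**Figure D1:**
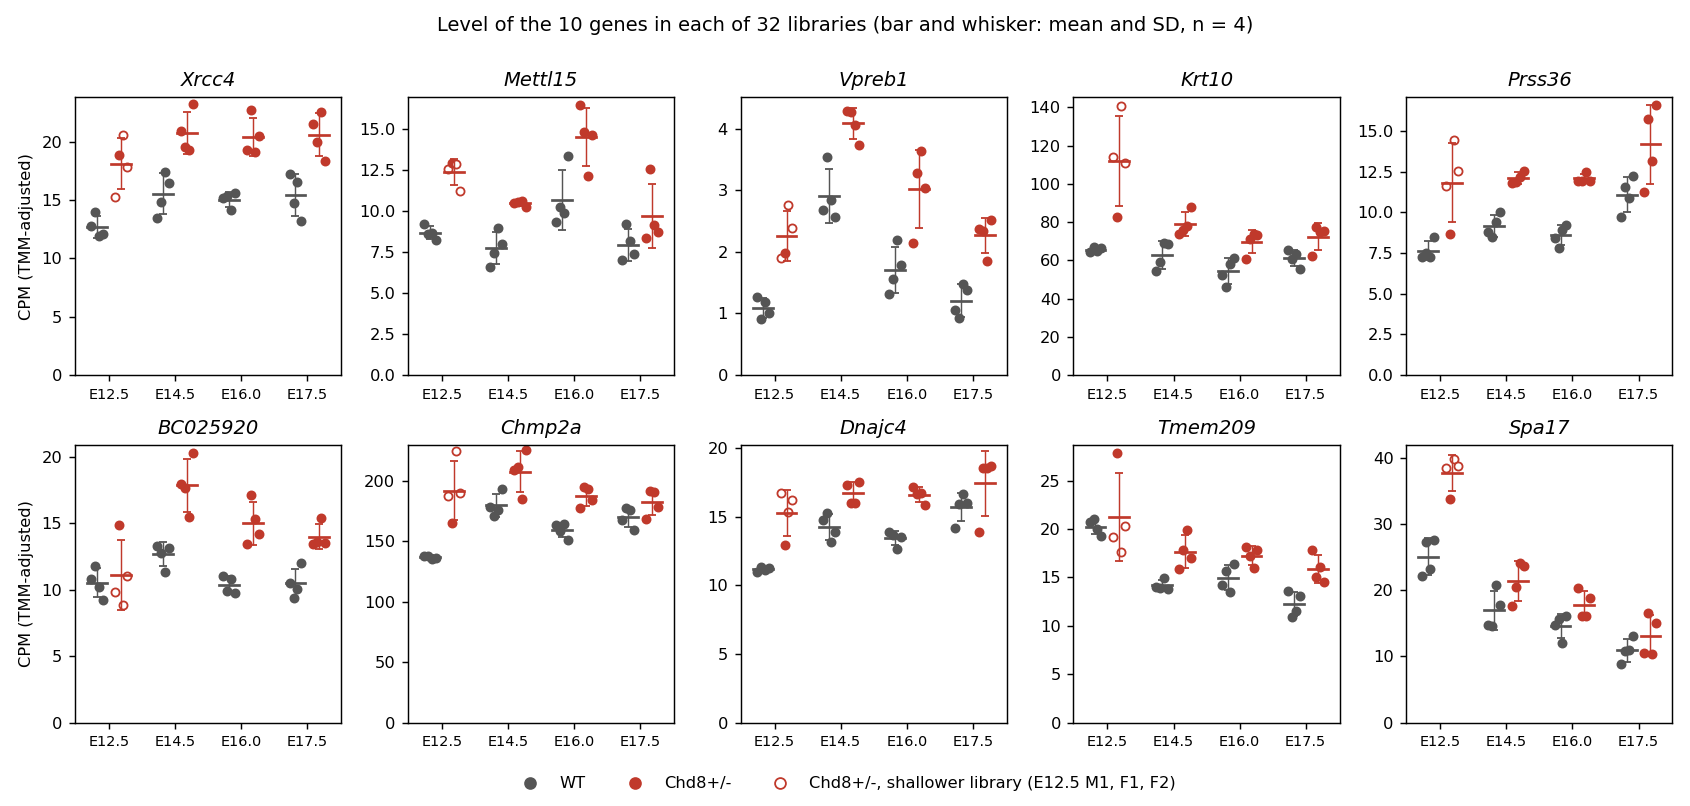
Level of each of the 10 genes in CPM (vertical axes start at 0) in all 32 libraries, by stage. Points are libraries, bars and whiskers the mean and SD of 4 libraries, grey WT and red het, with open circles for the 3 shallower het libraries of E12.5. The Xrcc4 groups do not overlap at any of the 4 stages, whereas the E12.5 groups of BC025920 and Tmem209 do.

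Across the 40 combinations of gene and stage, every het library lay above every WT library in 26. Such separation was seen for 8 of the 10 genes at E12.5, 8 at E14.5, 6 at E16.0 and 4 at E17.5, where it held for 6.18%, 0.705%, 1.29% and 0.755% of all tested genes. These counts come from the values that chose the genes, so nothing is read from them. At E12.5 the het library was shallower in 3 of the 4 pairs, and the part of depth in these counts was not tested.

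Xrcc4 (chr13:89774027-90089608, minus strand) encodes the partner that holds DNA ligase IV at a break during non-homologous end joining. At E12.5 its level was 12.8, 14.02, 11.9 and 12.1 CPM in WT M1, M2, F1 and F2 and 15.3, 18.9, 20.6 and 17.8 in the matched het libraries. At E17.5 the values were 17.2, 14.7, 16.6 and 13.2 in WT and 21.5, 19.99, 22.6 and 18.3 in het. The groups did not overlap at any stage, and the ratio within pairs ran from 1.11 to 1.72 with a median of 1.36. The log2 difference was 0.51, 0.42, 0.44 and 0.42 from E12.5 to E17.5 (SE 0.10 to 0.11), so that it varied between stages by less than its standard error. Left without the 3 pairs of unequal depth, the averaged difference was 0.43 against 0.45 with them.

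None of the 10 other tested genes of end joining was called in the same contrast, in which 0.302% of all tested genes were. Their median log2 difference was -0.01. The Ku subunits Xrcc5 and Xrcc6, which bind the broken end, differed by 0.07 (SE 0.05) and 0.01 (SE 0.04), and Paxx by -0.04 (SE 0.06). Nhej1, which forms filaments with Xrcc4, was named after its values were seen: it ranged from 4.03 to 8.90 CPM in WT (median 6.26) and from 4.29 to 10.1 in het (median 7.45), with het the higher library in 15 of 16 pairs. The log2 difference of 0.25 (SE 0.07) had an adjusted p of 0.162 by edgeR's quasi-likelihood test, 0.0109 by the same test with the block of pairs and 0.01995 by DESeq2.

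Tmem209 (chr6:30479053-30509783, minus strand) encodes a membrane protein of the nuclear envelope that is known to bind the nucleoporin Nup205. At E12.5 it stood at 20.7, 21.02, 20.04 and 19.3 CPM in WT M1, M2, F1 and F2 and at 19.2, 27.9, 17.7 and 20.3 in het. Only het M2, the library whose depth matched its partner, lay above the WT range there. At E17.5 the WT libraries had 13.6, 10.9, 11.5 and 13.04 and the het libraries 17.8, 15.05, 16.1 and 14.49, which do not overlap. The log2 difference was 0.07 at E12.5, 0.32 at E14.5, 0.21 at E16.0 and 0.37 at E17.5 (SE 0.11 at each), and the average was 0.33 without the 3 pairs of unequal depth and 0.24 with them. None of 25 nucleoporins was called, with a median difference of 0.01.

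BC025920 (chr10:81606270-81620703, plus strand) was likewise closest between the genotypes at E12.5. Its E12.5 values were 10.8, 11.8, 10.2 and 9.25 CPM in WT M1, M2, F1 and F2 and 9.82, 14.8, 8.81 and 10.99 in het. At E14.5 they were 13.3, 12.8, 11.3 and 13.2 in WT and 17.9, 17.7, 15.5 and 20.3 in het. The groups overlapped at E12.5 and at no later stage. The log2 difference was 0.09 at E12.5 and 0.50, 0.53 and 0.42 at the later stages (SE 0.12 to 0.13).

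Krt10 (chr11:99385254-99389364, minus strand) encodes the acidic keratin that pairs with Krt1 in the upper layers of the epidermis. At E12.5 its level was 64.1, 66.8, 64.8 and 66.6 CPM in WT M1, M2, F1 and F2 and 114, 82.9, 141 and 111 in het. Here the 3 shallower het libraries were the highest, and M2, with matched depth, had the smallest ratio, 1.24 against 1.66 to 2.17. At E17.5 the WT libraries had 65.4, 60.6, 63.2 and 55.6 and the het libraries 62.2, 77.5, 74.7 and 75.2, so the groups overlapped through het M1, the only library with a lower value than its partner over the 16 pairs. The log2 difference was 0.77 at E12.5 and 0.33, 0.36 and 0.24 at the later stages (SE 0.12 at each), and the average was 0.31 without the 3 pairs and 0.43 with them.

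Most other keratins had few counts. Of a list of 23 only 3 had enough counts to test (Krt1, Krt17 and Krt18), and none was called. Krt1, the epidermal partner of Krt10, was detected at a mean of 8.71 CPM and differed by -0.02 (SE 0.08). Krt28, the nearest tested gene downstream of Krt10, was not on that list and was named after its value was seen. It differed by 0.50 (SE 0.27) and was not called. Krt5 was at 0 in 29 of 32 libraries and Krt14 in 24, and the summed level of 6 markers of keratinocytes and surface ectoderm ranged from 6.14 to 35.8 CPM in WT and from 5.10 to 14.9 in het. That sum rests mostly on Krt1 (8028 UMIs) and Perp (1580), which were at 0 in no library. The 8495 cells with a UMI of any of those markers held 7.65% of the Krt10 UMIs. Pooled over libraries and without TMM, Krt10 stood in them at 70.03 UMIs per 1000000 at E12.5, against 71.1 over all cells. The pooled values were 73.4 against 68.7 at E14.5, 75.04 against 68.5 at E16.0 and 82.9 against 71.2 at E17.5. Taken singly, 7 of 8 libraries had more Krt10 in them at E12.5, where the pooled values went the other way. At E14.5, E16.0 and E17.5 Krt10 was higher in them in 8, 7 and 5 of 8 libraries.

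Vpreb1 (chr16:16868403-16870843, minus strand) encodes a chain of the surrogate light chain, with which early B cells test their heavy chain before a true light chain is made. It had the largest difference and the fewest counts of the 10, with 2241 UMIs in all and between 20 and 151 per library. At E14.5, where it was highest, the level was 2.69, 3.55, 2.84 and 2.56 CPM in WT M1, M2, F1 and F2 and 4.29, 4.27, 4.06 and 3.74 in het. At E12.5 the WT libraries had 1.27, 0.914, 1.19 and 1.00 and the het libraries 1.90, 1.98, 2.77 and 2.39. The groups were apart at both stages and at E17.5, and they overlapped at E16.0 only. The ratio within pairs ran from 1.20 to 2.54, and the averaged difference was 0.84 without the 3 pairs of unequal depth and 0.81 with them.

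Genes that define early B cells had few counts in these libraries. Of the 14 other genes of the pre-B-cell list 4 could be tested, and none was called. Pax5 had 18 UMIs and was at 0 in 19 of 32 libraries, and Igll1, the second chain of the surrogate light chain, had 52 UMIs and was at 0 in 12. Ebf1, which was higher in neurons than in progenitors of these WT libraries (log2 difference of progenitors minus neurons -2.16, SE 0.19), had 17361 UMIs. The summed level of the 6 B-lineage markers ranged from 6.71 to 29.8 CPM in WT and from 5.32 to 33.3 in het. Cells with a UMI of those markers, mostly of Ebf1, held 6.56% of the Vpreb1 UMIs. At E12.5 Vpreb1 was higher in them than over all cells in 7 of 8 libraries, at 2.66 against 1.34 UMIs per 1000000 (without TMM, libraries pooled). At E14.5 it was higher in them in 2 of 8 libraries (2.69 against 3.43), at E16.0 in 3 (2.46 against 2.67) and at E17.5 in 1 (1.08 against 1.79). These cells held 94 Vpreb1 UMIs at E12.5 and 7 to 24 at each later stage, and their part in the difference of the genotypes was not tested. Vpreb2, a near-identical copy, had 6 UMIs in all, and how the authors' counting divided reads between the copies is not stated.

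Spa17 (chr9:37603290-37613722, minus strand) encodes a sperm protein with the domain by which regulatory subunits of protein kinase A dock to their anchors. At E12.5 it had 22.2, 27.2, 23.2 and 27.6 CPM in WT M1, M2, F1 and F2 and 38.4, 33.7, 39.8 and 38.8 in het. At E17.5 the values were 8.88, 10.8, 10.9 and 13.04 in WT and 10.6, 16.5, 10.4 and 15.1 in het. The groups were apart at E12.5, overlapped at E14.5 and E17.5, and touched at E16.0, where the highest WT and the lowest het library both had 16.1. None of 7 tested genes of the same domain or of the sperm fibrous sheath was called, and the kinase subunits Prkar2a, Prkar2b and Prkar1a differed by -0.11 (SE 0.05), 0.01 (SE 0.08) and -0.01 (SE 0.06).

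Mettl15 (chr2:109092297-109280748, minus strand) encodes the enzyme that methylates a cytidine of the small mitochondrial ribosomal RNA. At E14.5 it was nearly constant among het libraries, at 10.46, 10.54, 10.6 and 10.2 CPM in M1, M2, F1 and F2, above the WT values of 6.60, 7.41, 8.92 and 7.97. At E12.5 the groups were also apart, with 8.23 to 9.19 in WT and 11.2 to 12.9 in het. At E16.0 and E17.5 they overlapped, although het was higher in each pair. Of 14 other genes that modify or assemble mitochondrial ribosomal RNA none was called, with a median difference of -0.03.

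Chmp2a (chr7:13032010-13034807, minus strand) encodes a subunit of ESCRT-III, the filament that cuts membrane necks at endosomes, at the cell bridge after mitosis and in the resealing nuclear envelope. It had the most counts of the 10, with 170813 UMIs. At E12.5 the WT libraries lay close together, at 138, 138, 135 and 136 CPM in M1, M2, F1 and F2, and the het libraries at 187, 165, 224 and 190. At E17.5 WT had 167, 178, 176 and 159 and het 168, 192, 190 and 178. As with Krt10, the shallowest het library had the highest value at E12.5, and the log2 difference was 0.49 at E12.5 and 0.21, 0.23 and 0.10 at the later stages (SE 0.08 at each). None of 12 tested genes of ESCRT-III and the Vps4 enzyme was called, Chmp1a at 0.08 (SE 0.07) and Chmp5 at 0.05 (SE 0.05) among them.

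Dnajc4 (chr19:6987911-6992572, minus strand) encodes a protein with the J domain that activates Hsp70 chaperones. Its WT libraries at E12.5 held 10.9, 11.3, 11.1 and 11.3 CPM in M1, M2, F1 and F2, and the het libraries 16.7, 12.9, 15.3 and 16.2. At E17.5 het M1 stood at 13.8, below all 4 WT libraries (14.2 to 16.6), and the other 3 het libraries at 18.5 to 18.7. The ratio within pairs ran from 0.976 to 1.53. None of 24 other DnaJ C-class genes was called, with a median difference of -0.01.

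Prss36 (chr7:127932638-127946725, minus strand) encodes a protease with several trypsin-like domains in 1 chain. At E16.0 it had 8.40, 7.81, 8.91 and 9.21 CPM in WT M1, M2, F1 and F2 and 11.9, 11.9, 12.5 and 11.9 in het. At E12.5 the values were 7.25, 7.50, 7.27 and 8.51 in WT and 11.6, 8.67, 14.47 and 12.5 in het, again lowest in the het library of matched depth. Without the 3 pairs of unequal depth its averaged difference was 0.37 against 0.47 with them. None of 7 tested trypsin-like proteases was called.

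Over all 9 lists, 106 genes were tested. EdgeR's quasi-likelihood test called 0 in either direction, 4 had an unadjusted p under 0.05, and DESeq2 and the blocked fit each called 1, Nhej1.

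**Figure D2:**
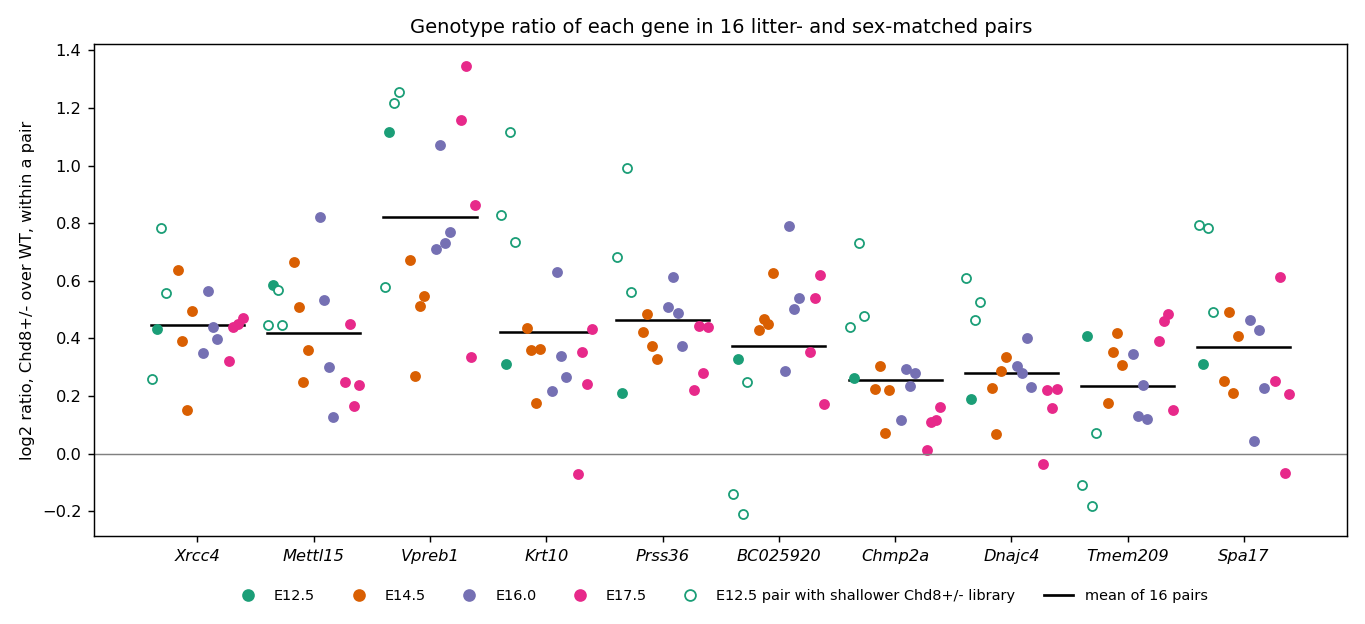
Log2 ratio of het over WT within each of the 16 pairs for the 10 genes, over all cells. Points are pairs coloured by stage, open circles the 3 E12.5 pairs in which the het library was shallower, and black bars the mean of the 16 pairs. Open circles are the highest points of Xrcc4, Krt10, Prss36, Chmp2a, Dnajc4 and Spa17, and the lowest of BC025920 and Tmem209.

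Whether the difference of the genotypes itself changed between stages was tested across all genes with an F test of the 3 differences between stages (edgeR's quasi-likelihood test). It called 0 of 15895 genes (0%), 756 had an unadjusted p under 0.05, and DESeq2 called 11, none of which was among the 10. Chmp2a and Krt10 had the lowest p of the 10 in edgeR's test, 0.011 and 0.015 before adjustment and 0.990 for both after it. They were the only 2 of the 10 under 0.05 before adjustment. For the difference between males and females, 0 of 15895 genes were called by edgeR (0%), 120 had an unadjusted p under 0.05 and DESeq2 called 0. The 10 genes gave differences between the sexes from -0.09 (SE 0.10) for Dnajc4 to 0.23 (SE 0.13) for Mettl15, and none had an unadjusted p under 0.05.

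Development in WT embryos separated the 10 genes into 3 kinds. From E12.5 to E17.5, edgeR's quasi-likelihood test called 67.6% of all tested genes (34.7% higher, 32.9% lower), and 4 of the 10 were higher and 2 lower at E17.5, which is near that background. Spa17 fell most, from 25.1 ± 2.78 CPM (SD, n = 4) at E12.5 to 16.99 ± 2.95 at E14.5, 14.6 ± 1.82 at E16.0 and 10.9 ± 1.70 at E17.5. Its log2 change was -1.20 (SE 0.15, adjusted p = 5.1e-08, edgeR), a 2.30-fold decrease, and the E12.5 and E17.5 libraries did not overlap. Tmem209 fell from 20.3 ± 0.749 to 12.3 ± 1.25, with a log2 change of -0.72 (SE 0.11, adjusted p = 1.9e-06, edgeR). Within the classes defined below, Tmem209 averaged 23.4 CPM at E12.5 and 20.1 at E17.5 in WT progenitors, and 8.53 and 9.22 in neurons. Progenitors were 58.1% to 69.7% of the cells of WT libraries at E12.5 and 7.45% to 15.4% at E17.5. The part of this share in the changes over all cells was not tested.

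The 4 that rose were Prss36, Dnajc4, Chmp2a and Xrcc4. Prss36 went from 7.63 ± 0.592 to 11.1 ± 1.09 CPM (log2 change 0.54, SE 0.12, adjusted p = 0.00038, edgeR) and Dnajc4 from 11.2 ± 0.170 to 15.7 ± 1.04 (0.49, SE 0.09, adjusted p = 3.8e-05, edgeR). Chmp2a changed by 0.31 (SE 0.08, adjusted p = 0.00075, edgeR) and Xrcc4 by 0.28 (SE 0.11, adjusted p = 0.019, edgeR). The call of Xrcc4 was lost without the 3 pairs of unequal depth (log2 change 0.13) and without the M1 and F1 pairs of E17.5 (0.16), and that of Chmp2a without the former (0.29). The call of Xrcc4 was further lost when any 1 of 4 WT libraries was left out (F1 or F2 of E12.5, M1 or F1 of E17.5), at 0.22 to 0.25.

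Mettl15, Vpreb1, Krt10 and BC025920 were not called between E12.5 and E17.5. Vpreb1 was nonetheless uneven over the stages in between: the 4 WT libraries of E14.5 had 2.56 to 3.55 CPM, above all 12 others (0.914 to 2.19). That peak was found on looking at the values and was not tested.

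The change from E12.5 to E17.5 was also fitted within the het libraries, with 4 libraries at either stage. There edgeR's quasi-likelihood test called 73% of all genes. Spa17 had a log2 change of -1.52 (SE 0.15) in het beside -1.20 in WT, and Tmem209 -0.43 (SE 0.11) beside -0.72. Krt10 was called in het, at -0.63 (SE 0.12, adjusted p = 2.2e-05, edgeR's quasi-likelihood test), where its WT value of -0.10 was not. Mettl15 (-0.35, SE 0.13, adjusted p = 0.017, edgeR) and BC025920 (0.32, SE 0.13, adjusted p = 0.024, edgeR) were likewise called in het, beside -0.13 and -0.01 in WT. Prss36, Dnajc4, Chmp2a and Xrcc4, which rose in WT, had values of 0.27, 0.19, -0.07 and 0.19 in het and were not called there. Vpreb1 had 0.01. The change is not shown to differ between the genotypes, since the test of genotype by stage called none of the 10, and 3 of the 4 het libraries of E12.5 were shallower than their partners.

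Progenitors and neurons were compared within WT libraries. Cells with a UMI of Sox2 or Eomes and none of Neurod6 were taken as progenitors (40741 cells over both genotypes) and cells with Neurod6 and neither of the others as neurons (53699 cells). Cells with both kinds of marker (31417) and with neither (12369) were left out. The classes are ranges of marker detection and not cell types. Free RNA may carry some UMIs of each class into the other, which was not estimated. Of 14247 genes tested, 85.3% were called (43.7% higher in progenitors, 41.7% higher in neurons), and 9 of the 10 genes were, 5 higher in progenitors and 4 in neurons, again near that background.

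Mettl15 was the gene with the strongest preference, at 14.2 ± 3.90 CPM (SD, n = 16) in progenitors and 3.29 ± 0.632 in neurons. It was higher in progenitors in 16 of 16 libraries, and the lowest progenitor value of any library (8.997) lay above the highest neuron value (4.29). The log2 difference was 2.07 (SE 0.07, adjusted p = 1.7e-24, edgeR), a 4.18-fold excess. Tmem209 followed with 21.8 ± 2.49 in progenitors and 9.12 ± 1.32 in neurons, without overlap of the 16 libraries (log2 difference 1.24, SE 0.06, adjusted p = 2.7e-19, edgeR). Of the nucleoporins, the complex to which its partner belongs, 23 of 25 were higher in progenitors and 1 in neurons, with a median of 0.54, against 43.7%, 41.7% and a median of 0.01 over all genes. Of the mitochondrial genes listed for Mettl15, 8 of 14 were higher in progenitors and 3 in neurons, with a median of 0.15, beside the same shares over all genes.

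Spa17 was on different sides at different stages. At E12.5 it was lower in progenitors (24.1 ± 2.82 CPM, SD, n = 4) than in neurons (31.4 ± 6.31), in all 4 libraries, with a log2 difference of -0.38 (SE 0.09, adjusted p = 0.00041, edgeR). At E17.5 progenitors were still at 22.3 ± 3.70, whereas neurons were at 6.24 ± 0.937, and the difference was 1.83 (SE 0.12, adjusted p = 6.5e-15, edgeR). In between, neurons had a mean of 13.7 ± 1.81 (E14.5) and 8.67 ± 1.44 (E16.0), and the progenitor means of the 4 stages lay between 22.3 and 24.1. The change of the difference over stages was not tested on its own.

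Xrcc4 and Krt10 were modestly higher in progenitors, with log2 differences of 0.32 (SE 0.06) and 0.20 (SE 0.04). At E12.5 and E14.5 neither was called, and at E16.0 and E17.5 both were, Xrcc4 with 20.3 ± 4.45 CPM in progenitors and 13.6 ± 2.81 in neurons at E17.5. Of the genes of end joining, 6 of 10 were higher in progenitors and 3 in neurons, against 43.7% and 41.7% of all genes. Their median log2 difference was 0.56, against 0.01 over all genes. Xrcc5 (1.26, SE 0.06) and Xrcc6 (1.09, SE 0.05) were higher in progenitors, and Paxx was higher in neurons (-1.96, SE 0.04).

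On the neuronal side, Chmp2a was higher in neurons in 16 of 16 libraries, at 192 ± 20.7 CPM against 139 ± 15.2 in progenitors (log2 difference -0.46, SE 0.03, adjusted p = 2.2e-15, edgeR). Of the 12 tested genes of its complex, 8 were higher in neurons and 4 in progenitors, against 41.7% and 43.7% of all genes. BC025920 averaged 12.7 ± 2.47 in neurons and 8.68 ± 2.01 in progenitors (-0.55, SE 0.07), and Prss36 10.8 ± 2.03 and 8.20 ± 1.42 (-0.39, SE 0.07). Neither of them was called at E12.5, and both were at each later stage.

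Vpreb1 was higher in neurons by a log2 value of 0.95 in size (progenitor minus neuron -0.95, SE 0.19, adjusted p = 3.0e-05, edgeR). At E14.5 neurons had between 3.81 and 5.90 CPM and progenitors between 0.671 and 2.83, without overlap. At E17.5 the classes were alike in range, 0.789 to 1.73 and 0.471 to 1.88. A class sum of Vpreb1 held as few as 1 UMI in progenitors and 2 in neurons. Without the 3 pairs of unequal depth, which left only M2 of each genotype at E12.5, the log2 difference of Vpreb1 was -0.57. Dnajc4 was the 1 gene not called, at 13.5 ± 1.86 in progenitors and 14.1 ± 1.62 in neurons (log2 difference -0.08, SE 0.05, adjusted p = 0.162, edgeR).

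The same comparison of classes within the het libraries gave Dnajc4 a log2 difference of -0.24 (SE 0.05, adjusted p = 6.0e-05, edgeR), called there and not in WT, and Xrcc4 one of 0.07 (SE 0.05, adjusted p = 0.222, edgeR), called in WT and not in het. The other 8 genes were called on the same side in both genotypes, from -1.04 for Vpreb1 to 1.86 for Mettl15 in het, where 84.5% of all genes were called, so that 9 of 10 called is near the background. The test of the difference between the classes called none of the 10.

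**Figure D3:**
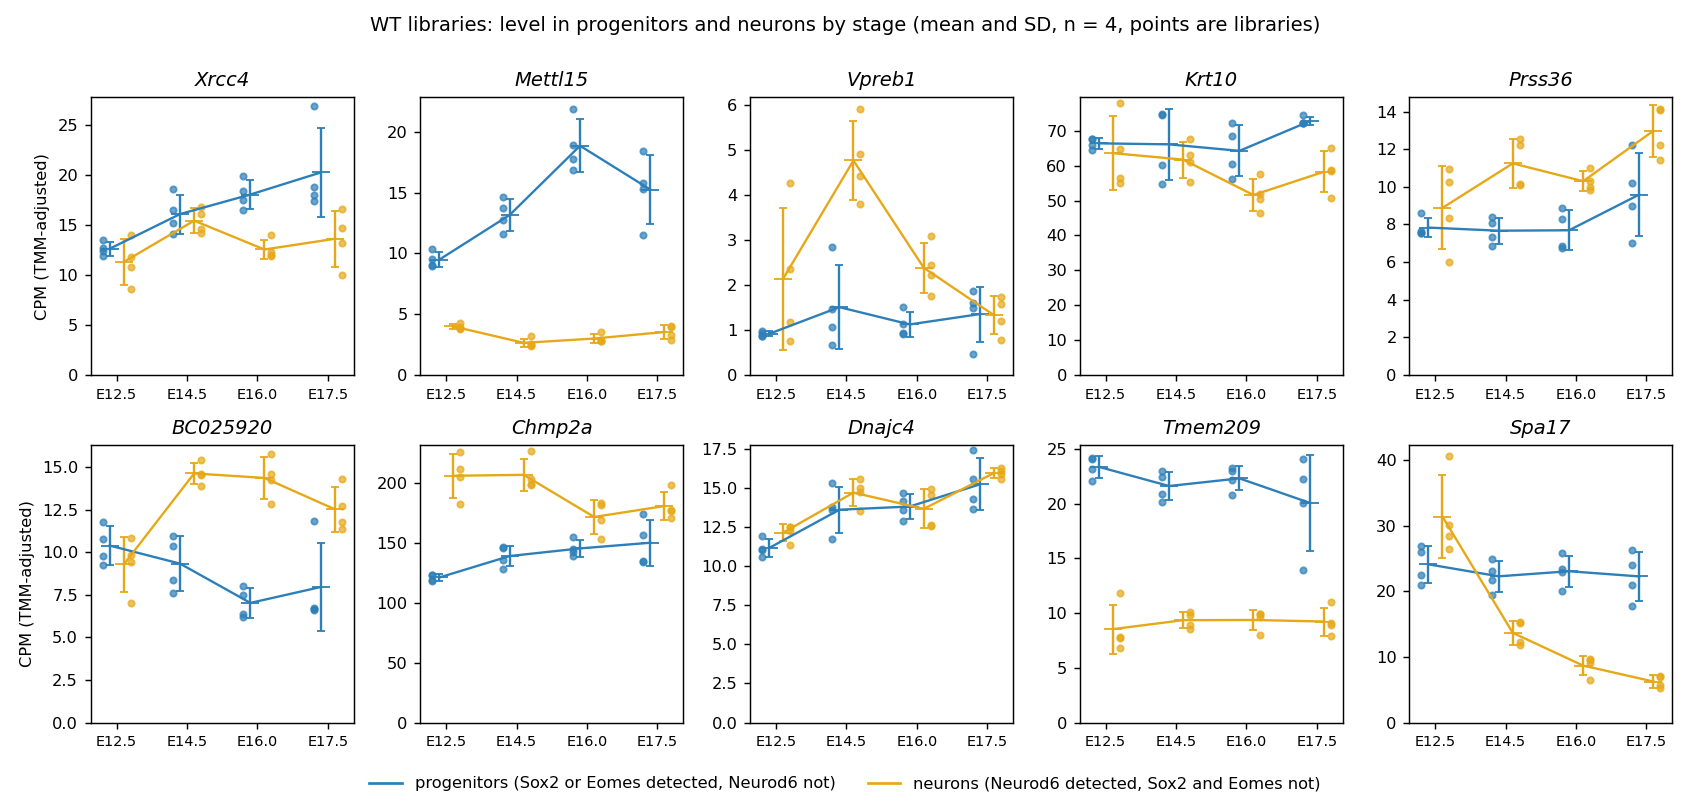
Level of each gene in CPM (vertical axes start at 0) in progenitors (blue) and neurons (yellow) of the WT libraries at 4 stages. Points are libraries and lines join means with SD (n = 4). Mettl15 and Tmem209 are higher in progenitors at every stage, Chmp2a is higher in neurons at every stage, and Spa17 in neurons is at 31.4 at E12.5 and at 6.24 at E17.5.

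The difference of the genotypes is given within each class as a description. The class sums are subsets of the cells on which the genes were chosen, so the values below restate that choice and nothing is read from them. Within progenitors, the mean log2 ratio of het over WT in the 16 pairs ran from 0.12 ± 0.28 (SD) for Dnajc4 to 0.83 ± 0.68 for Vpreb1, and within neurons from 0.27 ± 0.20 for Chmp2a to 0.88 ± 0.80 for Vpreb1. Xrcc4 was higher in het in 16 of 16 pairs in both classes, at 0.32 ± 0.19 in progenitors and 0.58 ± 0.32 in neurons, and Krt10 likewise at 0.41 ± 0.26 and 0.48 ± 0.29. Tmem209 was higher in 11 pairs in progenitors and in 16 in neurons, although its level is lower in neurons, and BC025920 in 13 and 16. Mettl15, scarce in WT neurons, had a mean log2 ratio there of 0.56 ± 0.41 against 0.38 ± 0.24 in progenitors. Dnajc4 was higher in het in 11 pairs in progenitors, and its mean in het progenitors of E17.5 was 0.958 of that in WT. For BC025920 in progenitors of E12.5 the ratio of the means was 0.975. A count of at least 13 pairs was reached by 2.63% of all genes in progenitors and 2.62% in neurons.

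The genes were chosen on the difference over all cells, and neurons held more UMIs than progenitors in most libraries after E12.5. That choice can favour genes with a larger difference in neurons, so the counts of the 10 that follow are no test of them. In 9 of the 10 genes the fitted difference was smaller in progenitors than in neurons, with Prss36 (0.04, SE 0.10) the exception. Over the 10 genes the median of this difference between classes was -0.15, and over all genes it was -0.0013. EdgeR's quasi-likelihood test called 1 gene of 14247 (0.00702%), which was not among the 10, and DESeq2 called 2. At an unadjusted p under 0.05 it found 594 genes, 4 of the 10 among them: Xrcc4 (-0.25, SE 0.08), Tmem209 (-0.22, SE 0.09), Dnajc4 (-0.17, SE 0.07) and BC025920 (-0.21, SE 0.10). After adjustment over all genes their p was 1, so none of them passed the test.

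**Figure D4:**
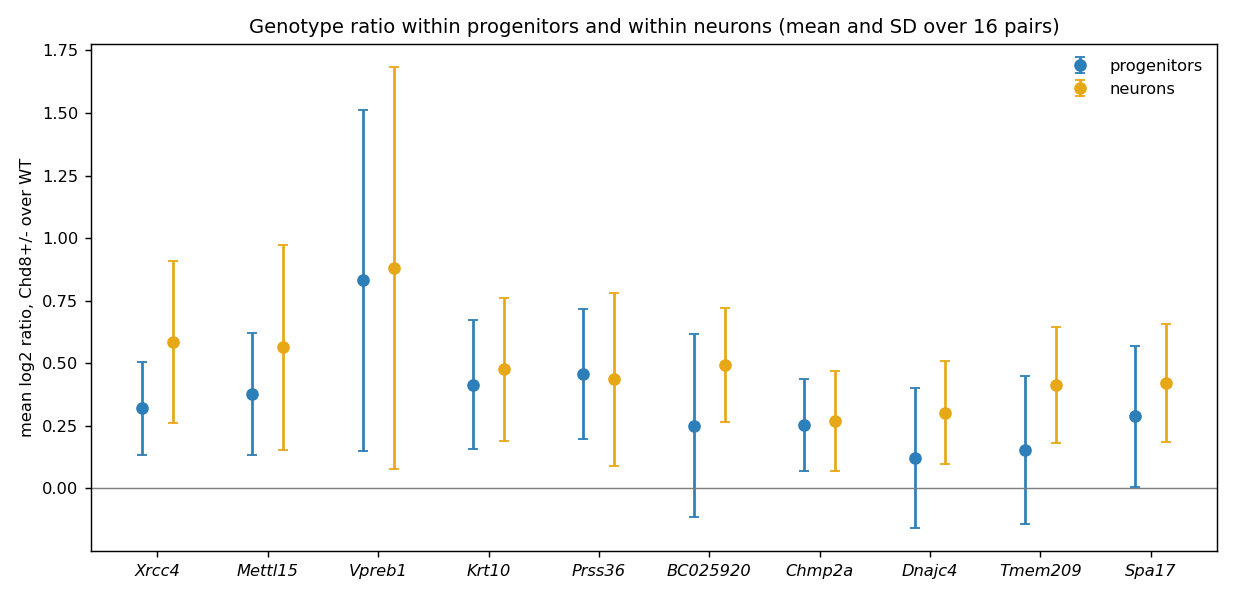
Mean log2 ratio of het over WT within progenitors (blue) and within neurons (yellow) for the 10 genes, with whiskers of 1 SD over 16 pairs. All 20 means are above 0, and the widest whiskers are those of Vpreb1, the gene with the fewest UMIs.

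The genes next to the 10 on the chromosome were examined in the same contrast. The nearest tested gene on each side gave 20 neighbours, of which edgeR's quasi-likelihood test called 0 (0.302% of all genes), DESeq2 0 and the blocked fit 0. Their log2 differences ran from -0.24 to 0.50 with a median of 0.04. At an unadjusted p under 0.05 there were 2, Gm11940 (0.28, SE 0.13), an antisense gene that overlaps Krt10, and Tle6 (0.36, SE 0.16) upstream of BC025920, the second named after its value was seen. The counting is not stated to use strand, so reads of Krt10 and Gm11940 cannot be told apart with certainty, and the same holds for the other overlapping pairs given below (Xrcc4 with Tmem167 and Gm4117, Mettl15 with Kif18a, Vpreb1 with Top3b, and Spa17 with Siae).

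An annotated start on the opposite strand within 1000 bases was found for 4 of the 10 genes (40.0%), against 27.2% of all tested genes. Mettl15 and the mitotic kinesin gene Kif18a start 10 bases apart, Tmem209 and Ssmem1 66, Vpreb1 and the topoisomerase gene Top3b 107, and Xrcc4 and Tmem167 485, and in all but the Tmem209 pair the first bases overlap. For Vpreb1 this is the start in GENCODE, since RefSeq places it farther inside the gene. The partners had log2 differences of 0.08 (SE 0.11) for Kif18a, 0.36 (SE 0.30) for Ssmem1, 0.10 (SE 0.06) for Top3b and 0.04 (SE 0.05) for Tmem167. Siae, whose gene overlaps Spa17 from the other strand, had -0.19 (SE 0.10), and Gm4117, which overlaps Xrcc4, 0.06 (SE 0.19).

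**Figure D5:**
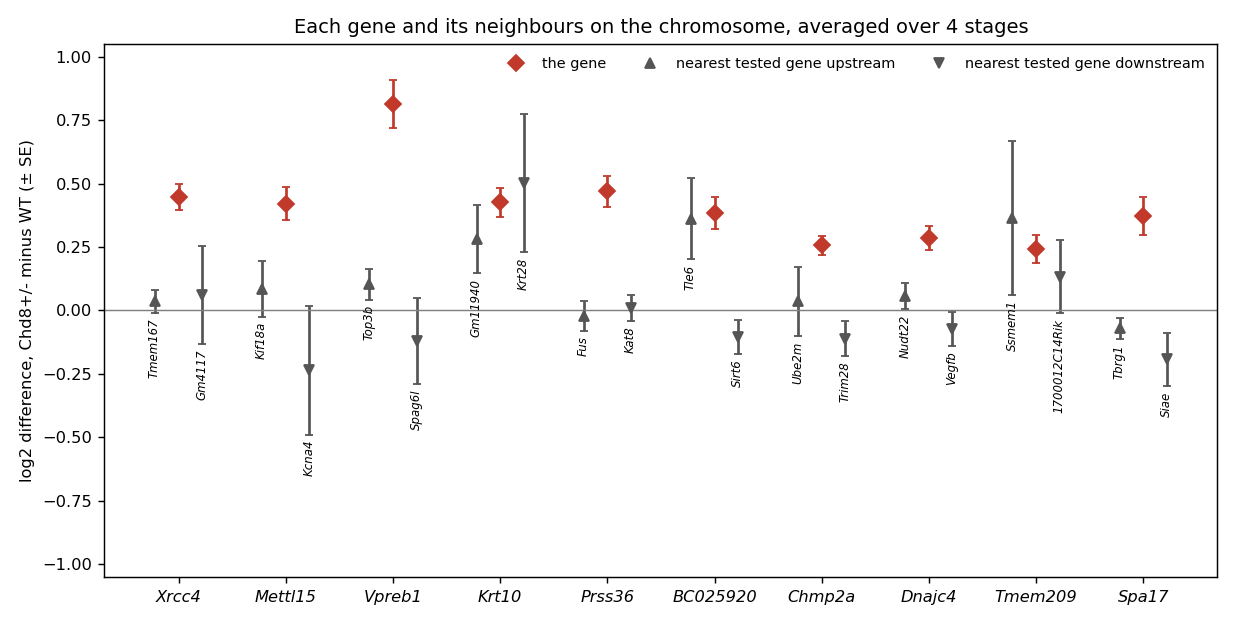
Averaged log2 difference of het minus WT (± SE) for each of the 10 genes (red diamonds) and for the nearest tested gene upstream (triangles up) and downstream (triangles down). The 10 genes were chosen for this difference and the neighbours were not. The neighbours lie between -0.24 and 0.50.

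The pattern of each gene over the 32 WT sums (16 libraries in 2 classes) was compared with that of every other tested gene by Pearson's r of log2 levels, as a description of points that share libraries and depth. Mettl15 was most like Stx4a (r = 0.98), Tmem209 most like Epb41l5 (0.96), Chmp2a most like Plgrkt (0.94) and Spa17 most like 4930452B06Rik (0.94). These 4 had many genes with r over 0.8, from 202 for Spa17 to 1927 for Tmem209. Xrcc4 (Ncald, 0.83), Vpreb1 (Slc30a10, 0.80), Krt10 (Fmc1, 0.83), Prss36 (Gm27008, 0.85), BC025920 (Galnt18, 0.86) and Dnajc4 (Hagh, 0.79) had at most 34.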

How the data were processed

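Droplet single-cell libraries (10x Genomics 3′ chemistry, v2) of 32 embryos were deposited by the authors as whole-number UMI counts per gene and barcode, not normalised. The submitters' processing notes name STAR 2.7.9a, STARsolo, Cell Ranger and build mm10. Whether counting used strand is not given in the sources used here.

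A barcode was kept if it had 1000 UMIs or more from 500 genes or more, with no more than 10% of its UMIs mitochondrial (143697 of 145082), and 5471 likely doublets were removed by similarity to simulated doublets (0.8% per 1000 cells). Counts were summed per library, and per library and class, and tested with edgeR 4.0.16 (quasi-likelihood, TMM, filterByExpr, R 4.3.3), with Benjamini-Hochberg adjustment over all genes tested and a threshold of 0.05. The 8 groups shared 1 fit, and the class fit (64 sums) had library as a term. DESeq2 1.42.0, no filter, kept doublets, left-out libraries or stages, other class rules and a block were the alternatives.

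The labels state that embryos formed litter- and sex-matched pairs but do not name the partners, which were taken from the sex and number in the titles. In 13 of the 16 pairs the deviations from the group means correlated above 0.1 (from -0.13 to 0.86), and 12 of the 16 WT libraries correlated best with their own number. The fit reported has no block.

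The 10 genes and all lists of genes were chosen with earlier results of these data known. Of other genes, the text names Chd8, the nearest tested neighbours that were called or overlap one of the 10, the called genes of each list and at most 3 others (the highest mean level), and the 1 gene most correlated with each of the 10. Exceptions are marked in the text or named here. The latter are Ssmem1 (a start near that of Tmem209), Krt28 (a keratin gene beside Krt10) and Vpreb2 (a copy of Vpreb1). They also include Krt5, Krt14, Perp, Pax5 and Igll1 (markers of other cell types) and Dalrd3 and 2900009J06Rik (beside the threshold). Positions are from GENCODE M21 (99.6% of identifiers found) and promoters from RefSeq, which were matched by symbol for 8 of the 10 genes. Marker lists for 14 cell types or states were summed per library, and none of their tested genes was called between the genotypes.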

Additional observations from a re-analysis of the deposited data

Results flagged for a closer look

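In 264 groups of 4 libraries (the 10 genes and Chd8, over all cells, progenitors and neurons), 15 held 1 library far from the other 3, by a gap, as a share of the range of the group, above Dixon's 95% critical value. Chance sets apart about 1 in 20 groups.

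Over all cells, Dnajc4 in het M1 at E17.5 stood at 13.8 CPM (UMIs per 1000000) against 18.5 to 18.7 in the other 3, and BC025920 in het F1 of that stage at 15.4 against 13.5 to 13.6. Prss36 in het F1 at E16.0 stood at 12.5 against 11.9 in each of the others. Chd8 was at 23.9 in het F1 at E12.5, the shallowest het library of that stage (others 37.4 to 39.4), and at 35.8 in het M2 at E16.0 (40.9 to 41.4).

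In progenitors, Xrcc4 in WT F1 at E17.5 was at 26.9 (others 17.4 to 18.8), Krt10 in WT M1 at E17.5 at 74.5 (72.1 to 72.2), Prss36 in WT F2 at E12.5 at 8.59 (7.52 to 7.65) and BC025920 in WT F2 at E17.5 at 11.9 (6.60 to 6.70). Chd8 in progenitors was at 22.4 in het F1 at E12.5 (36.4 to 38.9) and at 62.4 in WT M1 at E17.5 (42.9 to 45.9).

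In neurons, Xrcc4 stood at 17.4 in het F1 at E14.5 (22.3 to 23.2) and at 21.3 in het M2 at E16.0 (17.4 to 17.6), Chmp2a at 227 in WT F2 at E14.5 (199 to 203) and Tmem209 at 7.96 in WT F2 at E16.0 (9.63 to 9.95).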

How the results depend on the processing

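The averaged difference of het minus WT stayed positive for all 10 genes in every alternative run, and leaving out 1 library moved it within 0.34 to 0.41 for BC025920 and 0.78 to 0.85 for Vpreb1. The number of genes called in that contrast, 48, depended on the setting: 115 by DESeq2, 20 without a filter on low counts, 235 with the replicate block, 6 without the 3 pairs of unequal depth at E12.5 (an alternative added after seeing the data), 9 without the E12.5 libraries, 15 without those of E14.5 and 8 without those of E16.0. It ranged from 31 (without WT F1 of E12.5) to 71 with 1 library left out. For genotype by stage, 0 became 11 by DESeq2, 1 with the replicate block and up to 10 with 1 library left out (het M2 of E12.5), against 0 at the lowest. For genotype by sex, 0 became 7 without a filter. For the difference between classes, 1 became 2 by DESeq2, 26 without a filter and 3 with at least 2 UMIs of a marker. It became 0 with double-marker cells as progenitors and 0 without the library term, and was between 1 and 2 with 1 library left out. The class fits with 1 library left out used the dispersions (the spread of counts between libraries) estimated from all libraries. None of the 10 genes was called in any of these fits of the 3 interactions. The small WT change of BC025920 from E12.5 to E17.5 (-0.0074) turned sign by DESeq2 (0.017), without a filter (0.015), with doublets kept (0.00051), without the M1 and F1 pairs of E17.5 (also added later, 0.034), and with 1 library left out (-0.069 to 0.048, above 0 without any 1 of 5 libraries). Dnajc4 became called between WT progenitors and neurons with doublets kept (-0.12), with 2 UMIs of a marker (-0.11) and without any 1 of 3 libraries (-0.14 to -0.12). Of the 10 genes, which were chosen on the contrast of het against WT, 9 were called in it as reported. The count was 10 by DESeq2 and with the block (Tmem209 added) and 8 without a filter. It was 4, 7 and 5 without the libraries of E12.5, E14.5 and E16.0. These counts restate the choice. The block was run for that contrast and for the 3 interactions (none of the 10 called in the latter), and not for the WT stages or classes. The cause was not tested in any of these cases, apart from fewer genes or samples being tested. Depth limits Vpreb1 most: its 2241 UMIs are spread over 32 libraries, and a class sum held as few as 1.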
